A study of Mus musculus with 6 samples.

Results

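Dendritic cells (DCs) take up material from tumors, process it and present it to T cells, and the conventional DCs (cDCs) of the mouse fall into 2 groups. cDC1s depend on the transcription factor BATF3 and cross-present antigen from dead cells to CD8+ T cells, whereas cDC2s present antigen mainly to CD4+ T cells. Either kind can mature after antigen uptake, when it raises chemokines and cytokines that act on T cells. The 10 genes described here mark these groups. *Xcr1*, *Clec9a*, *Batf3* and *Itgae* were listed for cDC1s, *Cd209a* for cDC2s, *Zbtb46* for cDCs as a whole, and *Fscn1*, *Ccl22*, *Ccl17* and *Il12b* for mature DCs. They were listed by name for the cells they mark, without a threshold on their values, and were found by Ensembl identifier and GENCODE symbol, so that 10 of 10 were present among the 54309 identifiers of the deposited table.

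The tumors were of MCA205, a methylcholanthrene-induced mouse fibrosarcoma line, grown under the skin of wild-type female C57BL/6J mice aged 7 weeks. Control mice drank MilliQ water, and treated mice drank water with 0.1 mg/mL FF-10101 from day 1 after inoculation. FF-10101 is a covalent inhibitor that was developed against FLT3, the receptor that drives DC development, and that also inhibits CSF1R, the receptor on which macrophages depend. Whole-tumor RNA of 3 Control and 3 FF-10101–treated tumors was sequenced on day 8; the samples are called biological replicates in the series description, and no cell type was sorted. Since the RNA is from bulk tissue, fewer cells of a type and less RNA per cell cannot be told apart for any of the 10 genes.

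The libraries held between 9143806 and 13258258 reads. *Vim*, a mesenchymal marker of the fibrosarcoma, had between 28120 and 36521 normalized counts, and *Ptprc*, which encodes the leukocyte antigen CD45, between 1175 and 3237. Values are given as normalized counts, that is reads divided by a size factor per tumor, and 3 reads, the most that a count of 0 allows with 95% confidence, correspond to between 2.29 and 3.38 normalized counts; such limits cover counting error only. Fold changes and their intervals are from limma on log2(normalized count + 1) with Benjamini-Hochberg adjustment over the 13963 genes whose mean count was 10 or more, and are FF-10101–treated over Control on that scale. At an adjusted p under 0.05, 6 genes passed, 4 higher and 2 lower, which is 0.043% of those tested, and at an unadjusted p under 0.05 16.3% did. The values of the treated tumors all lay on the same side of the Control tumors for 20.2% of genes. Control tumor 1 stood apart from the other 2 Control tumors: without it, 21.9% of genes passed. It was the highest Control tumor for 8 of the 10 DC genes and the lowest for the other 2, *Cd209a* and *Ccl17*. Over all genes tested it was the highest for 44.62% and the lowest for 39.24%. This position was not particular to the 10 genes. Control tumor 1 was also the highest Control tumor for 35 of 47 other DC genes listed below. The same held for 8 of 8 macrophage, 7 of 7 T cell and 8 of 8 endothelial markers, and for 2 of 5 B cell markers.

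All 10 genes had a mean of at least 10 and were tested, and 0 of the 10 passed an adjusted p of 0.05 in limma. In each of the 10, the values of the Control and FF-10101–treated tumors overlapped, and 1, *Batf3*, had an unadjusted p under 0.05. The log2 fold change was above 0 for *Clec9a* and *Zbtb46* and below 0 for the other 8, with a median of −0.28 beside 0.02 over all genes tested. Per kilobase of the longest coding transcript, *Fscn1* stood far above the others, with 1684 normalized counts in the Control tumors. *Ccl17*, *Batf3* and *Ccl22* followed with 152, 135 and 113, *Cd209a* with 30.99, and the remaining 5 had between 5.82 for *Xcr1* and 16.1 for *Itgae*.

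**Figure D1:**
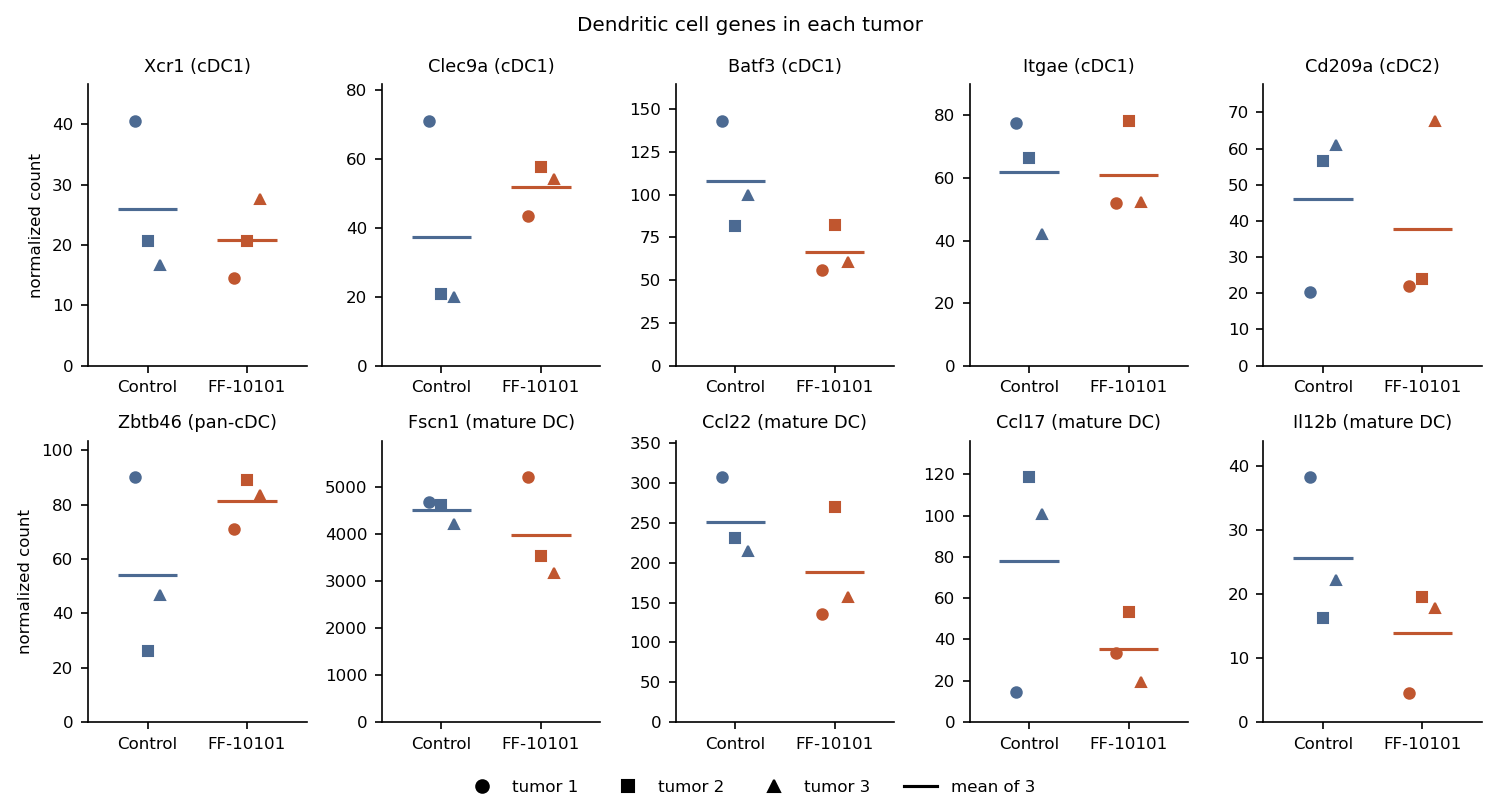
Normalized counts of the 10 DC genes in each tumor, with 1 panel per gene and an axis from 0. Symbols mark tumors 1, 2 and 3 of each group and lines the mean of 3; Control and FF-10101–treated tumors overlap in every panel, and Control tumor 1 is the highest Control tumor for 8 genes and the lowest for *Cd209a* and *Ccl17*.

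Among the cDC1 genes, *Xcr1* and *Batf3* had lower means after FF-10101 treatment, *Clec9a* a higher mean and *Itgae* nearly the same mean, and none passed in limma after adjustment. *Xcr1* (ENSMUSG00000060509), which encodes the receptor for the chemokine XCL1 that lymphocytes release, had 40.5, 20.6 and 16.6 normalized counts in Control tumors 1 to 3 and 14.5, 20.6 and 27.6 in FF-10101 tumors 1 to 3. Control tumor 1 was the highest of the 6 and FF-10101 tumor 1 the lowest, and the other 4 lay between. The means were 25.9 ± 12.8 and 20.9 ± 6.53 (SD, n = 3 each), and the log2 fold change was −0.24 with a 95% interval of −1.32 to 0.83 (limma adjusted p = 0.816). *Clec9a* (ENSMUSG00000046080), a C-type lectin that binds the exposed actin of dead cells, had 70.9, 20.6 and 19.97 normalized counts in the Control tumors and 43.5, 57.5 and 54.2 in the FF-10101–treated tumors. The treated tumors were all above Control tumors 2 and 3 and all below Control tumor 1. The means were 37.2 ± 29.2 and 51.8 ± 7.32 (SD, n = 3 each), for a log2 fold change of 0.71 (95% interval −0.45 to 1.88, limma adjusted p = 0.503). *Clec9a* shares exonic sequence with the neighbouring *Clec1b*, namely 4.63% of its 31-base words, so that reads of the 2 genes may have been shared, and *Clec1b* itself was at most 16.0 normalized counts in any tumor. *Xcr1* shares 3.32% of its words with other genes and *Il12b* 0.407%, and the other 7 share none.

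*Batf3* (ENSMUSG00000026630) had 143, 81.5 and 99.8 normalized counts in the Control tumors and 55.8, 82.5 and 60.4 in the FF-10101–treated tumors. The groups touched at 1 point only, since FF-10101 tumor 2 was just above Control tumor 2. The means were 108 ± 31.6 and 66.2 ± 14.3 (SD, n = 3 each), and the log2 fold change of −0.68 (95% interval −1.36 to −0.0039) had an unadjusted p of 0.049 and an adjusted p of 0.306 in limma. The unadjusted p was 0.121 without Control tumor 1, 0.081 without Control tumor 3, and 0.135 and 0.121 without FF-10101 tumors 1 and 3 in limma. Leaving out FF-10101 tumor 2 gave an unadjusted limma p of 0.0416, and leaving out Control tumor 2 gave 0.0317. The exact two-sided permutation p was 0.2, where 3 against 3 tumors can give no less than 0.1. *Itgae* (ENSMUSG00000005947), the integrin αE chain CD103, which pairs with the β7 chain to bind E-cadherin, had 77.7, 66.3 and 42.2 normalized counts in the Control tumors and 51.9, 78.2 and 52.4 in the treated tumors. The highest value was that of FF-10101 tumor 2 and the lowest that of Control tumor 3, so that the groups lay within each other. The means were 62.0 ± 18.1 and 60.8 ± 15.0 (SD, n = 3 each), and the log2 fold change was −0.01 with an interval of −0.76 to 0.74 (limma adjusted p = 0.992).

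*Cd209a* (ENSMUSG00000031494), a C-type lectin of the DC-SIGN family found on cDC2s and on DCs derived from monocytes, had 20.3, 56.5 and 61.0 normalized counts in the Control tumors and 22.1, 23.9 and 67.6 in the FF-10101–treated tumors. Both groups were split, with Control tumor 1 and FF-10101 tumors 1 and 2 low and the other 3 tumors high. The means of 45.9 ± 22.3 and 37.9 ± 25.7 (SD, n = 3 each) differed by a log2 fold change of −0.31 (95% interval −1.64 to 1.02, limma adjusted p = 0.806). This interval reaches from 0.32-fold to 2.02-fold, so that a fall or a rise within these bounds is compatible with the values.

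*Zbtb46* (ENSMUSG00000027583), a zinc finger transcription factor that marks committed cDCs and is also expressed by endothelial cells, had 90.1, 26.1 and 46.6 normalized counts in the Control tumors and 71.0, 89.0 and 83.6 in the FF-10101–treated tumors. As with *Clec9a*, the treated tumors were above Control tumors 2 and 3 and below Control tumor 1. The means were 54.2 ± 32.7 and 81.2 ± 9.22 (SD, n = 3 each), and the log2 fold change was 0.74 (95% interval −0.26 to 1.74, limma adjusted p = 0.421).

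The 4 mature DC genes all had lower means in the FF-10101–treated tumors, with log2 fold changes between −0.96 and −0.21, and 0 of the 4 passed in limma. *Fscn1* (ENSMUSG00000029581), which encodes the actin-bundling protein fascin, had 4675, 4625 and 4211 normalized counts in the Control tumors and 5207, 3537 and 3177 in the treated tumors. The Control tumors lay close together, and the treated tumors lay on both sides of them. The means were 4504 ± 255 and 3974 ± 1083 (SD, n = 3 each), for a log2 fold change of −0.21 (95% interval −0.69 to 0.26, limma adjusted p = 0.624). Fascin is also made by mesenchymal and tumor cells, as described below for their markers.

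*Ccl22* and *Ccl17* encode the 2 ligands of CCR4, a receptor of regulatory and other T cells, and are neighbours on mouse chromosome 8. *Ccl22* (ENSMUSG00000031779) had 307, 231 and 215 normalized counts in the Control tumors and 136, 270 and 157 in the FF-10101–treated tumors. FF-10101 tumors 1 and 3 were below all Control tumors, and FF-10101 tumor 2 lay among them. The means were 251 ± 49.2 and 188 ± 72.2 (SD, n = 3 each), and the log2 fold change was −0.47 (95% interval −1.13 to 0.20, limma adjusted p = 0.445). *Ccl17* (ENSMUSG00000031780) had 14.6, 118 and 101 normalized counts in the Control tumors and 33.6, 53.2 and 19.6 in the treated tumors. Control tumor 1 was the lowest of all 6, and Control tumors 2 and 3 were the highest. The means were 78.0 ± 55.6 and 35.5 ± 16.9 (SD, n = 3 each), and the log2 fold change was −0.77 (95% interval −2.56 to 1.02, limma adjusted p = 0.640). In Control tumor 1 there were thus 21.0 reads of *Ccl22* for each read of *Ccl17*, against 1.95 and 2.13 in Control tumors 2 and 3 and 4.05, 5.08 and 8.05 in the treated tumors. This ratio was formed after its values were seen and is given as a description.

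*Il12b* (ENSMUSG00000004296), the p40 chain shared by IL-12 and IL-23, had 38.3, 16.3 and 22.2 normalized counts in the Control tumors and 4.58, 19.5 and 17.8 in the FF-10101–treated tumors. FF-10101 tumor 1, with 6 reads, was the lowest, and the other 2 treated tumors lay between Control tumors 2 and 3. The means were 25.6 ± 11.4 and 14.0 ± 8.18 (SD, n = 3 each), and the log2 fold change was −0.96 (95% interval −2.40 to 0.48, limma adjusted p = 0.468). It was −0.35 without FF-10101 tumor 1. For all 10 genes, the two-sided p of the exact permutation test was between 0.2 and 1.

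When Control tumor 1 was left out, 3 of the 10 genes passed an adjusted p of 0.05 in limma, which is to be read against 21.9% of all genes tested. *Clec9a* had a log2 fold change of 1.30 (adjusted p = 0.0227) and *Zbtb46* of 1.19 (adjusted p = 0.0321), and *Ccl17* one of −1.71 (adjusted p = 0.0232). The values of *Xcr1* and *Itgae* moved to the other side of 0, at 0.12 and 0.17, and those of the other 5 remained below 0, between −0.81 for *Cd209a* and −0.18 for *Fscn1*. With any other tumor left out, 0 of the 10 passed. Since Control tumor 1 was left out after its position was known, and 2 Control tumors remain, these values describe the other 5 tumors.

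**Figure D2:**
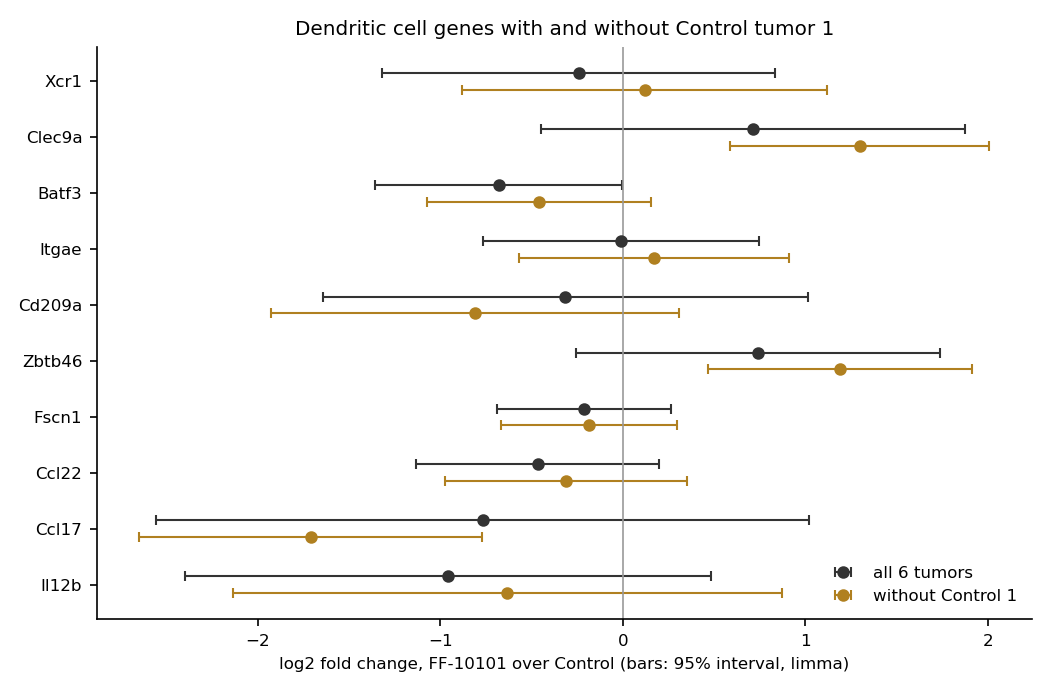
Log2 fold changes of the 10 DC genes, FF-10101–treated over Control, with 95% intervals from limma, for all 6 tumors and without Control tumor 1. With all 6 tumors the intervals include 0 for every gene but *Batf3*, whose upper end is −0.0039; without Control tumor 1 those of *Clec9a*, *Zbtb46* and *Ccl17* do not reach 0.

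*Ptprc*, the gene taken for leukocytes as a whole, differed among the tumors of each group. It had 3237, 1443 and 1175 normalized counts in the Control tumors and 1741, 2330 and 2844 in the FF-10101–treated tumors, which gave a log2 fold change of 0.36 (limma adjusted p = 0.650), and of 0.79 (limma adjusted p = 0.0327) without Control tumor 1. The DC genes were therefore also taken relative to *Ptprc* in the same tumor, a scale on which the median of all genes shifted to −0.34 and 7.96% of genes did not overlap between the groups, with 2.69% lower in every treated tumor. On this scale, 3 of the 10 genes, *Xcr1*, *Batf3* and *Il12b*, lay below all Control tumors in all treated tumors. The log2 ratio of *Xcr1* to *Ptprc* was −6.29, −6.06 and −6.06 in the Control tumors and −6.81, −6.75 and −6.64 in the treated tumors, a difference of −0.60. That of *Batf3* was −4.49, −4.13 and −3.54 against −4.94, −4.80 and −5.53, a difference of −1.04. That of *Il12b* was −6.37, −6.38 and −5.66 against −8.29, −6.83 and −7.24, a difference of −1.31. The SD of the log2 ratio of *Xcr1* was 0.13 in the Control and 0.09 in the treated tumors, at 15 to 36 reads of *Xcr1* in a library. So few reads vary widely by counting alone, and these SDs from 3 tumors are therefore not a measure of precision.

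Each of these 3 differences had an exact two-sided permutation p of 0.1, the smallest that 3 against 3 tumors can give, and none passed in limma (adjusted p = 0.874 for each). With each of the 6 tumors left out in turn, the differences lay between −0.67 and −0.56 for *Xcr1*, −1.26 and −0.78 for *Batf3*, and −1.63 and −0.90 for *Il12b*. Since these 3 were taken because their groups did not overlap, leaving out a tumor could not turn the differences or make the groups overlap. The ranges thus describe size only. Of the other 7, *Clec9a* and *Zbtb46* had differences of 0.36 and 0.38, and the rest lay between −1.13 for *Ccl17* and −0.37 for *Itgae*, with groups that overlapped and exact permutation p between 0.2 and 0.6. In all, 8 of 10 were below 0, beside the shift of −0.34 over all genes. Of the 45 other DC genes tested, 6 were higher and 6 lower in every treated tumor relative to *Ptprc*. Among all 13962 genes on this scale, 736 were higher and 376 lower in every treated tumor, and 6 of the 8 endothelial markers were higher. Of the 8 macrophage markers, 8 were below 0 and 7 lower in every treated tumor on this scale, and the part of macrophages in the values of the 10 genes was not tested. Without Control tumor 1, 9 of the 10 did not overlap, all but *Zbtb46*, but with 2 Control tumors left 70.6% of all genes did not overlap on this scale, so that the count says little about these 10.

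**Figure D3:**
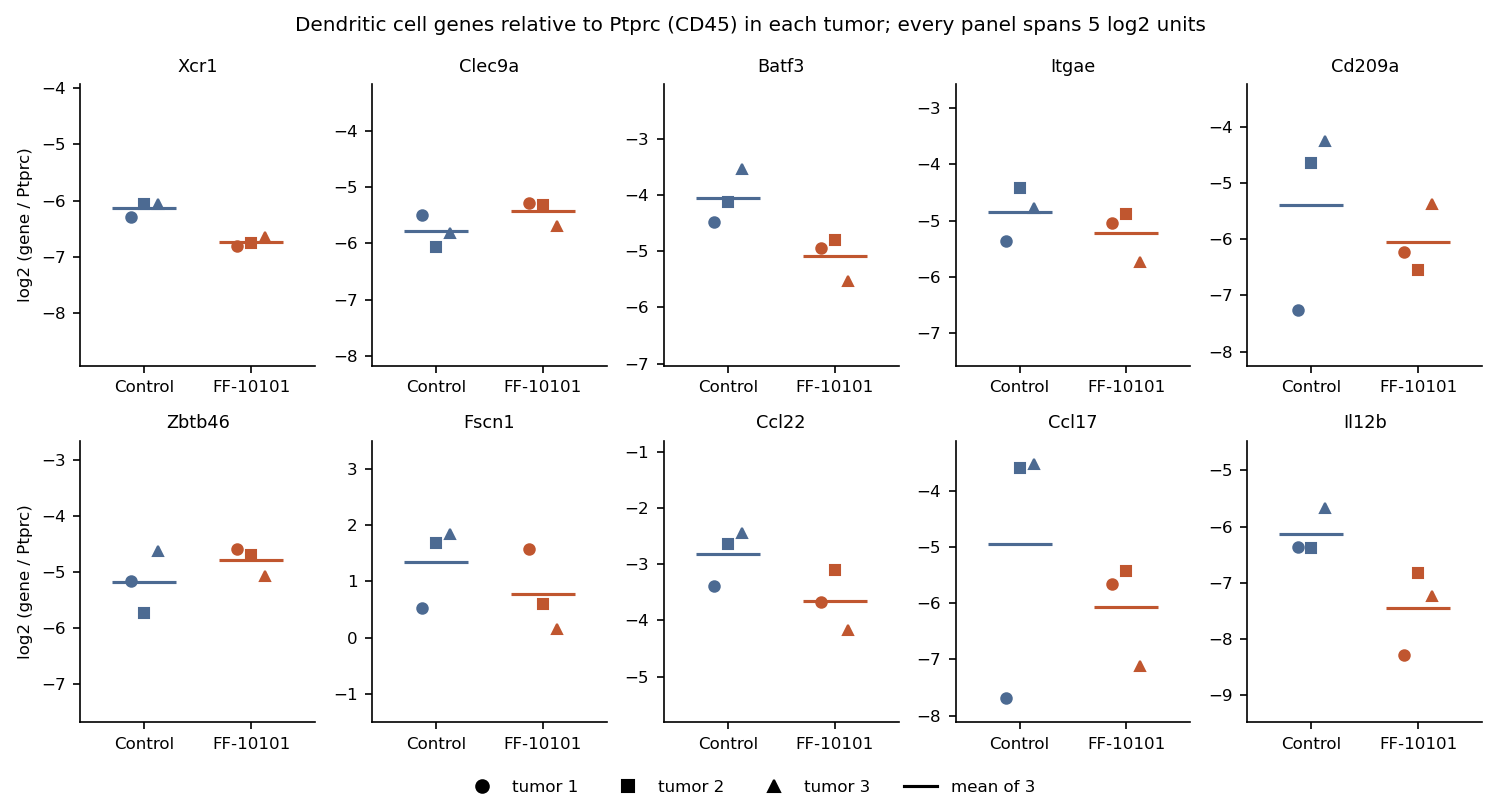
Log2 ratio of each DC gene to *Ptprc* in the same tumor; symbols mark tumors 1, 2 and 3 of each group, lines the mean of 3, and every panel spans the same number of log2 units. *Xcr1*, *Batf3* and *Il12b* lie lower in all 3 treated tumors than in all 3 Control tumors, by −0.60, −1.04 and −1.31 on average.

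*Xcr1* and *Clec9a*, both nearly restricted to cDC1s, had log2 fold changes on opposite sides of 0. There were 1.75, 1 and 1.2 reads of *Clec9a* for each read of *Xcr1* in the Control tumors and 3, 2.79 and 1.97 in the FF-10101–treated tumors, so that each treated tumor was above each Control tumor. The reads behind these ratios were few, between 15 and 36 of *Xcr1* and between 18 and 63 of *Clec9a* in a library. The pair was formed after its values were seen, and no test is given.

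The sequence upstream of the start site is shown for the 3 genes that were lower relative to *Ptprc* in every treated tumor. The windows of 250 bases are from RefSeq on GRCm38.p6, 5′ to 3′ on the strand of the gene, with matches to the ETS motif GGAAGT, bound by factors such as PU.1, in capitals. They lie at chr9:123862030-123862279 on the minus strand for *Xcr1*, chr1:191098164-191098413 on the plus strand for *Batf3* and chr11:44399813-44400062 on the plus strand for *Il12b*, each outside the RefSeq extent of any gene; the authors' annotation is of another build, and these coordinates belong to the sequence table alone.
Xcr1: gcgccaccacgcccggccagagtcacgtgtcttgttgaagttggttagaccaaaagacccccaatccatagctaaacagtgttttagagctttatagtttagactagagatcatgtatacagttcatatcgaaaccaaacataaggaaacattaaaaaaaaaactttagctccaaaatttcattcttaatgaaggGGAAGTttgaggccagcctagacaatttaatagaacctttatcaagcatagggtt
Batf3: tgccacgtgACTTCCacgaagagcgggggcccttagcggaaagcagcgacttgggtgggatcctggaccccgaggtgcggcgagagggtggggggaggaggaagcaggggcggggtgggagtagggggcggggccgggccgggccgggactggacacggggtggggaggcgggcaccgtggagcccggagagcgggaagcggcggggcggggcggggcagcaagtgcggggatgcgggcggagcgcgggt
Il12b: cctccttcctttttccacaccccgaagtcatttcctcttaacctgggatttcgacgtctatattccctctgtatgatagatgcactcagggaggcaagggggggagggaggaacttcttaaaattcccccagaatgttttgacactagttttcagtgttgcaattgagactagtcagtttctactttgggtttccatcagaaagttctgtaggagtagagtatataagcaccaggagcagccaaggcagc

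The ETS motif was found on either strand in 4 of the 9 DC genes with a window, *Xcr1*, *Batf3*, *Cd209a* and *Ccl22*, and in 19.7% of the 32851 promoter windows of the table. In *Xcr1* the match is at −55 to −50 from the start site, and in *Batf3* it reads ACTTCC, on the minus strand, at −241 to −236. The composite ETS-IRF motif GGAANNGAA, which PU.1 and IRF4 or IRF8 bind together, was found in 1, *Cd209a*, where it overlaps the ETS match, and in 6.99% of all windows. The AP-1 motif TGANTCA was found in 1, *Zbtb46*, and in 6.75% of all windows, and the NF-kB consensus in 0 of the 9 and in 7.25% of all windows. These are exact matches of letters in 1 window per gene, and *Itgae* had no window. A site that departs from these patterns was not counted, so a gene without a match may still hold one.

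A further 47 genes of the same DC groups were listed, and 0 of the 45 tested passed an adjusted p of 0.05 in limma; 9 had an unadjusted p under 0.05, beside 16.3% of all genes. Their median log2 fold change was 0.14, with 28 above and 17 below 0, and 4 were higher and 4 lower without overlap between the groups, beside 20.2% of all genes. These shares are near those of all genes. Without Control tumor 1, 17 of them passed, 15 higher and 2 lower, where 21.9% of all genes did, 1672 higher and 1379 lower.

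Of the other cDC1 genes, 8 of 9 were tested, 0 had an unadjusted p under 0.05, and 0 were apart between the groups. *Irf8*, the transcription factor on which cDC1s depend, had 2783, 1091 and 1018 normalized counts in the Control tumors and 1624, 1479 and 1726 in the treated tumors, which gave a log2 fold change of 0.14 (limma adjusted p = 0.863). Control tumor 1 was the highest of the 6 and the other 2 Control tumors the lowest. Without Control tumor 1, where 21.9% of all genes passed, 4 of the 8 did, all higher, namely *Irf8*, *Id2*, *Nfil3* and *Tlr3*, which are named after their values were seen.

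Of the other cDC2 genes, 8 of 9 were tested, and 2 were lower in every treated tumor. Among all 13963 genes tested, 1308 were lower in this way, and 20.2% did not overlap in either direction. *Mgl2*, a C-type lectin (CD301b) of dermal cDC2s and of macrophages, had 326, 823 and 465 normalized counts in the Control tumors and 144, 181 and 300 in the treated tumors, which gave a log2 fold change of −1.33 (limma adjusted p = 0.229). *Itgam*, the CD11b chain of cDC2s, macrophages, monocytes and neutrophils, had a log2 fold change of −0.73 (limma adjusted p = 0.235). Neither passed, and both are also expressed by macrophages. Of 8 macrophage markers, 4, *Adgre1*, *C1qa*, *C1qb* and *C1qc*, were lower in every treated tumor, where 1308 of 13963 genes were. Their log2 fold changes were between −0.95 and −0.65 (limma adjusted p between 0.229 and 0.293). The groups overlapped for *Csf1r*, *Cd68*, *Fcgr1* and *Mertk*, at −0.25, −0.13, −0.10 and 0.14. The summed level of the 8 was between 35129 and 62269 normalized counts in the Control tumors and between 22438 and 31322 in the treated tumors. The part of macrophages in the values of *Mgl2* and *Itgam* was not tested. *Irf4*, which cDC2s need to migrate, had a log2 fold change of 0.74 (limma adjusted p = 0.418), with overlap.

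Of the other pan-cDC genes, 9 of 9 were tested, 0 had an unadjusted p under 0.05, and 0 were apart between the groups. *Flt3*, the receptor for the DC growth factor and the original target of FF-10101, had 81.0, 43.5 and 54.4 normalized counts in the Control tumors and 30.5, 59.7 and 47.1 in the treated tumors. The groups overlapped, with FF-10101 tumor 1 the lowest and Control tumor 1 the highest, and the log2 fold change was −0.38 (95% interval −1.22 to 0.47, limma adjusted p = 0.625). *Itgax*, which encodes CD11c, had 980, 319 and 192 normalized counts in the Control tumors and 584, 588 and 530 in the treated tumors. Its log2 fold change was 0.53 (limma adjusted p = 0.624), and 1.19 (adjusted p = 0.00973) without Control tumor 1.

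Of the 20 other mature DC genes, 20 were tested, 7 had an unadjusted p under 0.05, beside 16.3% of all genes, and 6 did not overlap between the groups, 4 higher and 2 lower, beside 20.2% of all genes. *Socs2*, an inhibitor of cytokine signaling, had 188, 122 and 113 normalized counts in the Control tumors and 313, 350 and 308 in the treated tumors, which gave a log2 fold change of 1.23 (95% interval 0.70 to 1.76, limma adjusted p = 0.224). *Cd200* and *Il15ra*, the chain that presents IL-15, were also higher in every treated tumor, with log2 fold changes of 0.98 and 0.57 (limma adjusted p = 0.245 and 0.253). *Cd83*, a surface marker of DC maturation, had 566, 561 and 461 normalized counts in the Control tumors and 362, 402 and 290 in the treated tumors, which gave a log2 fold change of −0.60 (limma adjusted p = 0.230). The other 3 genes with an unadjusted p under 0.05 were *Pdcd1lg2*, *Cd274* and *Cd80*, which encode ligands of inhibitory and costimulatory receptors on T cells, with log2 fold changes of 1.44, 1.27 and 0.79 (limma adjusted p = 0.291, 0.293 and 0.2996) and groups that overlapped. The remaining 2 of the 6 without overlap were *Slco5a1*, higher at 0.54, and *Cacnb3*, lower at −0.29. These 5 genes are named after their values were seen. *Ccr7*, which guides mature DCs to lymph nodes, had a log2 fold change of −0.36 with overlap (limma adjusted p = 0.491). Thus none of these genes passed, and 12 of the 20 log2 fold changes were above and 8 below 0.

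**Figure D4:**
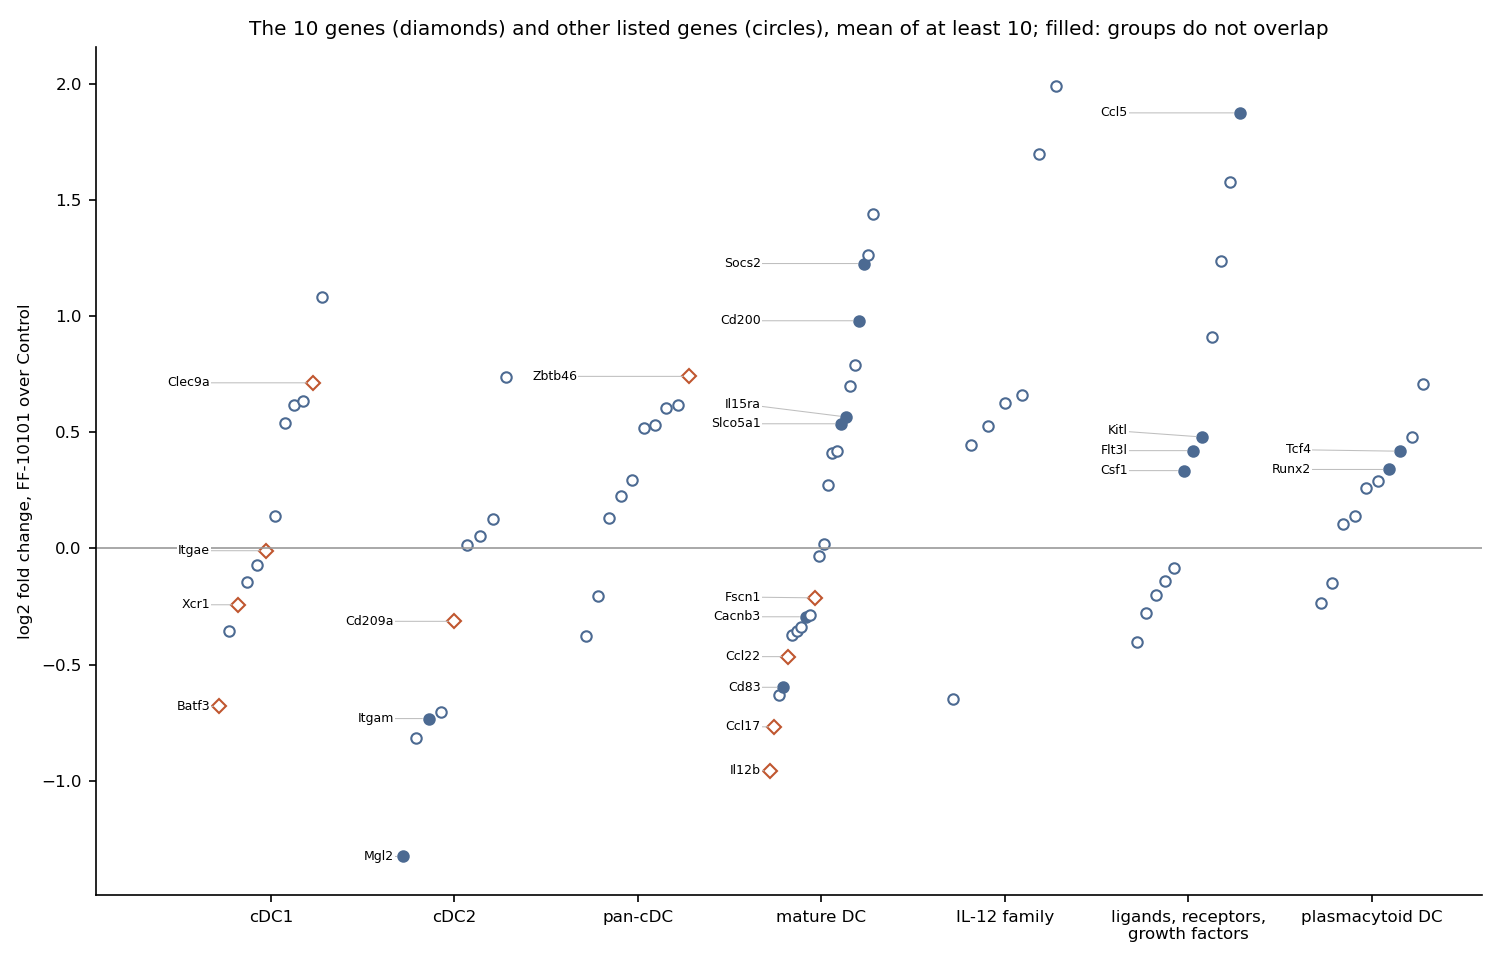
Log2 fold changes, FF-10101–treated over Control, of the 10 DC genes (diamonds) and of the other listed genes with a mean of at least 10 (circles), sorted within each list; filled symbols are genes whose groups do not overlap. None of the 10 is filled, and the other mature DC genes run from −0.63 to 1.44.

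The partners of the 10 genes were taken next. *Xcl1*, the ligand of XCR1, had 143, 90.2 and 92.1 normalized counts in the Control tumors and 113, 91.2 and 86.2 in the treated tumors (log2 fold change −0.14, limma adjusted p = 0.812). *Ccr4*, the receptor for CCL17 and CCL22, was low throughout, between 8 and 17 reads, with a log2 fold change of −0.28, and *Itgb7*, the partner chain of CD103, had −0.08; the groups overlapped for both. *Il12a*, the p35 chain that joins p40 in IL-12, had between 0 and 6 reads in a tumor and was not tested. Of the 7 tested genes of the IL-12 family and its receptors and targets, 0 passed, and *Ifng*, the cytokine that IL-12 induces, had 146, 25.0 and 11.1 normalized counts in the Control tumors and 132, 115 and 188 in the treated tumors (log2 fold change 1.99, limma adjusted p = 0.290). FF-10101 tumors 1 and 2 were below Control tumor 1, so that the groups overlapped for *Ifng* too, the only 1 of the 7 with an unadjusted p under 0.05.

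Of the 12 tested ligands, receptors and growth factors, 0 passed, 3 had an unadjusted p under 0.05, beside 16.3% of all genes, and 4 were higher in every treated tumor, where 20.2% of all genes did not overlap in either direction and 1518 of 13963 were higher. *Flt3l*, the growth factor for DC precursors, had 122, 83.7 and 128 normalized counts in the Control tumors and 150, 156 and 134 in the treated tumors, which gave a log2 fold change of 0.42 (limma adjusted p = 0.394). *Kitl*, the ligand of KIT, had a log2 fold change of 0.48 (limma adjusted p = 0.320), and *Csf1*, the ligand of CSF1R, which is named after its values were seen, one of 0.34 (limma adjusted p = 0.346). Each is the ligand of a receptor of the kinase family that FF-10101 inhibits, and a link between this and their values was not tested. Without Control tumor 1 the log2 fold changes were 0.50 for *Flt3l*, 0.30 for *Kitl* and 0.22 for *Csf1* (limma adjusted p = 0.163, 0.253 and 0.263). *Ccl5*, a chemokine from T and NK cells that attracts cDC1s, had 3177, 756 and 824 normalized counts in the Control tumors and 3716, 5566 and 4748 in the treated tumors, which gave a log2 fold change of 1.88 (limma adjusted p = 0.229). Of the 10 markers of plasmacytoid DCs, the interferon-producing DCs, 0 passed and 1 had an unadjusted p under 0.05; *Siglech*, the most specific and named for that after its values were seen, had 27.0, 25.0 and 26.6 normalized counts in the Control tumors and 22.9, 22.8 and 59.6 in the treated tumors. Only FF-10101 tumor 3 was above the Control tumors, and the log2 fold change of 0.26 (limma adjusted p = 0.791) rests on it. *Tcf4* and *Runx2*, which other cells also express, were higher in every treated tumor at 0.42 and 0.34.

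Several of the 10 genes are not restricted to DCs, and the markers of other cells that express them were measured in the same tumors. The summed level of the 8 endothelial markers was between 2165 and 6371 normalized counts in the Control tumors and between 6339 and 6883 in the treated tumors. All 8 had a log2 fold change above 0, none at 0 reads, 6 had an unadjusted p under 0.05, beside 16.3% of all genes, and *Tek* was higher in every treated tumor at 1.47 (limma adjusted p = 0.240). As for *Zbtb46*, Control tumor 1 was near the treated tumors and Control tumors 2 and 3 were below. Without Control tumor 1, where *Zbtb46* passed, 8 of the 8 endothelial markers passed too, all higher, beside 21.9% of all genes. The part of endothelial cells in the values of *Zbtb46* was not tested.

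The summed level of the 7 T cell markers was between 619 and 2054 normalized counts in the Control tumors and between 855 and 1927 in the treated tumors, with 7 of 7 log2 fold changes above 0, 0 apart between the groups and none at 0 reads. *Itgae* is also on T cells of tissues, and their part in its values was not tested. For *Fscn1*, the 5 mesenchymal markers had log2 fold changes between −0.16 for *Vim* and 1.01 for *Col3a1*, none apart between the groups and none at 0 reads. Their summed level was between 74003 and 188317 normalized counts in the Control tumors and between 146635 and 211561 in the treated tumors, and their part was likewise not tested. Reads of the keratinocyte genes *Krt5* and *Krt14* were found in 2 tumors, with 13.3 and 31.1 normalized counts in Control tumor 3 and 396 and 484 in FF-10101 tumor 1. *Cd207*, which marks the Langerhans cells of the epidermis and some dermal cDC1s, was at most 2.22 normalized counts in any tumor.

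**Figure D5:**
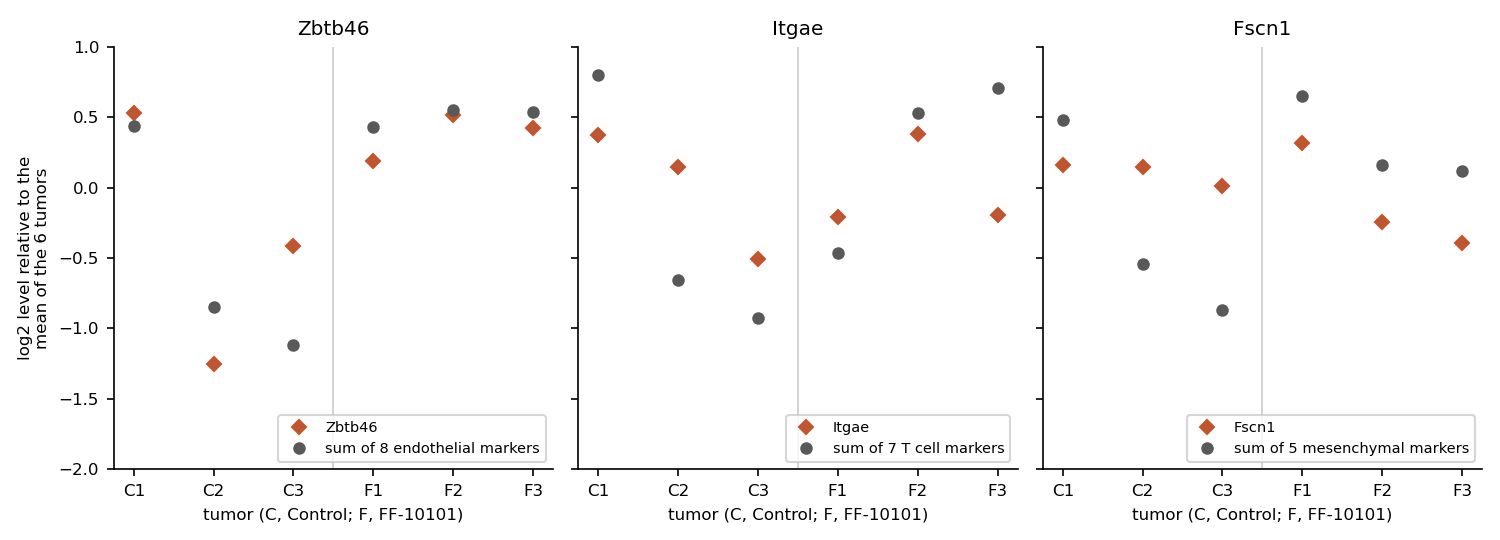
*Zbtb46*, *Itgae* and *Fscn1* (diamonds) beside the summed level of the endothelial, T cell and mesenchymal markers (circles) in each tumor, as log2 values relative to the mean of the 6 tumors. C1 to C3 are Control and F1 to F3 FF-10101–treated tumors; *Zbtb46* and the endothelial markers are both low in C2 and C3 and high in the other 4 tumors.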

How the data were processed

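Total RNA of 3 Control and 3 FF-10101–treated tumors was sequenced on an Illumina instrument. Per the authors' methods, reads were processed with fastp 0.19.5 and quantified with Salmon 1.5.1, with annotation from GENCODE vM27. Differential expression was determined with DESeq2 1.22.1. Library strandedness is not given in the sources used here. The deposited values are on a log2 scale and have the form of the authors' tool's variance-stabilized values, though the transformation is not stated. They were turned back into normalized counts, of which 100% were whole reads within 0.01 after division by the value of 1 read per tumor. Symbols of 51484 of 54309 identifiers came from GENCODE vM21.

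Log2(normalized count + 1) of the 13963 genes whose mean count was 10 or more was fitted with group as the only term in limma 3.58.1 (R 4.3.3, trended prior), tested on simulated data first, with Benjamini-Hochberg adjustment. The exact permutation test was two-sided. Alternatives were other pseudocounts (0.5 and 10), filters (none and 50), scaling (75th percentile, *Ptprc*), no trend, limma-voom, the deposited values, a replicate block and leaving out each tumor. The values relative to *Ptprc* for counts of calls were added after seeing the data. The 10 genes and the 22 gene lists were chosen with earlier results of these data known. Named are the 10 genes, *Xcl1*, *Ccr4*, *Itgb7*, *Flt3*, *Flt3l*, *Irf8*, *Irf4*, *Ccr7*, *Il12a*, *Itgax* and *Ptprc*, and of each other list at most the 4 genes with the smallest p among those with an unadjusted p under 0.05 or no overlap. Some further genes, among them *Siglech*, *Vim*, *Krt5*, *Krt14*, *Cd207* and other markers of cell types, are named outside this rule after their values were seen. Libraries held 9143806 to 13258258 reads, so a gene with about 20 reads varies widely by counting alone.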

Additional observations from a re-analysis of the deposited data

How the results depend on the processing

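Over all genes, 6 passed; 17 did with no minimum level, 3 with a mean of at least 50 and 1 with a replicate block. With each tumor left out in turn, the count ran from 1 to 3051: Control tumor 1 gave 3051 when left out, Control tumor 2 gave 1, and Control tumor 3 and FF-10101 tumor 2 gave 3 each. Of the 10 DC genes, between 0 and 3 passed and of the other DC genes between 0 and 17, in both cases above 0 without Control tumor 1 only; with limma-voom on the recovered reads 0 of either passed. The number of DC genes apart relative to *Ptprc* ran from 3 to 9, the 9 without Control tumor 1, where 70.6% of all genes were apart; leaving out a tumor cannot lower this number. The log2 fold change of *Xcr1* ran from −0.50 to 0.12 and that of *Itgae* from −0.26 to 0.17 with each tumor left out; the cause was not tested. In the same way, *Cd209a* ran from −0.82 to −0.04, *Ccl17* from −1.71 to −0.24, *Il12b* from −1.29 to −0.35, *Ccl22* from −0.76 to −0.27, *Fscn1* from −0.42 to −0.07, *Batf3* from −0.86 to −0.46, *Zbtb46* from 0.31 to 1.19 and *Clec9a* from 0.41 to 1.30. Of 156 values of the 10 genes under the alternatives, 148 kept their direction and side of the threshold, 3 passed it and 5 turned. Filters, the prior and the block leave the fold change itself as it is. A pseudocount of 10 and the deposited values made it smaller for genes with few reads. *Il12b* went from −0.96 to −0.59 and −0.39, *Clec9a* from 0.71 to 0.55 and 0.37, and *Xcr1* from −0.24 to −0.18 and −0.12. *Xcr1*, *Clec9a*, *Cd209a* and *Il12b* fall under a mean of 50 and have no value there.

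Tumors of the same number did not deviate together (r = −0.29, −0.04 and −0.28 over genes), so the numbers do not pair them. With the replicate block, 0 of the 10 DC genes and 0 of the other DC genes passed, and the log2 fold changes of the 10 were the same, for example −0.68 for *Batf3* (limma adjusted p = 0.537, unadjusted p = 0.105). At 15 to 36 reads of *Xcr1* and 6 to 34 of *Il12b* per tumor, small differences were not detectable.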
